A study of Homo sapiens with 6 samples.

Results

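Among the H3K27ac peaks of M2 macrophages, 8234 lay close beside a peak of the monocytic THP-1 line without touching it. They are M2 peaks under 3000 bp wide that share no base with a THP-1 peak and have a gap of at most 5000 bp to the nearest THP-1 peak. They are called flanking peaks here, and make up 23.2% of the 35520 M2 peaks without THP-1 overlap (exact 95% binomial interval 22.7 to 23.6). The whole M2 list holds 56420 peaks, of which those 35520, or 63.0%, overlap no THP-1 peak, and the THP-1 list holds 31444 peaks. Flanking peaks together covered 6.12 Mb, which is 9.97% of the length covered by all M2 peaks and 20.6% of that covered by M2-only peaks. Position in the 2 lists and width chose these peaks, so their gaps and their lack of overlap are a description and not a finding.

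The series profiled THP-1 cells, an established human monocytic leukaemia line, and cells labelled M2 macrophages, a name for macrophages in an alternatively activated state. Both were grown in the same serum-containing RPMI medium, and no treatment or genotype is named for either. Each cell type had 1 library for H3K27ac, 1 for the transcription factor YY1 and 1 for input DNA, and only the H3K27ac peaks, 1 list for each cell type, are described. The sources used here do not name the cells that gave rise to the macrophages, and neither cell type could be checked against marker genes, because no hg19 gene positions were used. For the same reason peaks are named by their hg19 coordinates and no sequence is shown. Without replicate libraries no difference could be set against replicate spread, so no p-value is given. Intervals cover counting error alone, and peaks from the same library are not independent replicates.

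H3K27ac is the acetylation of lysine 27 on the tail of histone H3. It marks nucleosomes at active promoters and enhancers and is removed when such elements are silenced. Because the mark sits on nucleosomes, acetylated stretches often lie on both sides of a nucleosome-poor centre where transcription factors bind, and a caller of narrow peaks can report 1 acetylated domain as several peaks. A peak beside an element that is also acetylated in another cell type can thus be a separate element or an outer part of the same domain, and a peak list does not state which.

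The regions drawn around 4 THP-1 peaks show the forms these peaks took, and were picked by rules on fold enrichment and number. Fold enrichment is the deposited ratio of signal at the summit to local background. In region A the flanking peak of highest fold enrichment, on chromosome 2 at 39714889 to 39716602, stood 29.4-fold over background. Its gap was 2996 bp, to a THP-1 peak 396 bp wide. That THP-1 peak had 4 flanking peaks around it and was itself overlapped by an M2 peak of 913 bp (14.9-fold). Region B, on chromosome 16 at 66784612 to 66786128, holds a flanking peak with a fold of 21.2, and the THP-1 peak 3138 bp away has no M2 peak on it. Region C, on chromosome 19, has 6 flanking peaks around the THP-1 peak at 17586103 to 17586778, the most at any THP-1 peak. Region D, on chromosome 13, has 3 flanking peaks on the 2 sides of the THP-1 peak at 48732559 to 48733016, with folds of 16.4, 9.54 and 15.8.

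**Figure D1:**
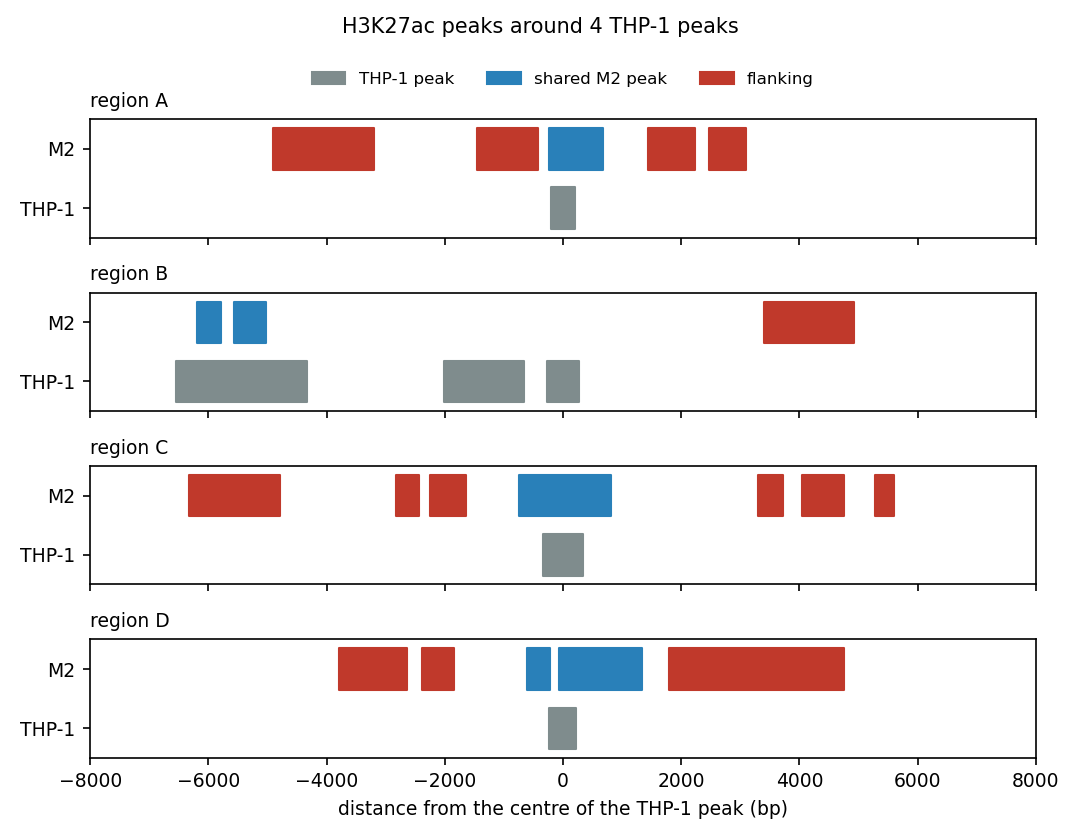
Peaks of the THP-1 list (grey) and the M2 list around a THP-1 peak, in bp from the centre of that peak, for 4 regions named in the text. Flanking M2-only peaks are red and M2 peaks that overlap a THP-1 peak are blue. The central THP-1 peak carries an M2 peak in regions A, C and D and none in region B.

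The gap between a flanking peak and its THP-1 peak was most often short. The smallest gap was 1 bp, the median 1390 bp and the interquartile range 470 to 2970 bp. A gap of over 250 to 500 bp was found for 1568 flanking peaks, or 19.0% (18.2 to 19.9), while gaps up to 250 bp held 642, or 7.80% (7.23 to 8.40). In classes of equal width of 1000 bp, the numbers fell from 1529 at over 1000 to 2000 bp to 963, or 11.7%, in the last class before the limit.

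Set against the sequence at each distance, flanking peaks were densest at gaps of over 250 to 500 bp. That sequence, counted around all THP-1 peaks, held 126 flanking peaks per Mb, against 44.0 per Mb at gaps up to 250 bp and 53.1 per Mb at over 500 to 1000 bp. At over 4000 to 5000 bp the density was 26.1 per Mb. Beyond the limit M2-only peaks of the same width range continued at 24.2 per Mb from 5000 to 10000 bp and at 17.1 per Mb from 10000 to 50000 bp. M2 peaks that overlap a THP-1 peak reach into this sequence and filled 40.8% of it at gaps up to 250 bp and 23.01% at over 250 to 500 bp. Over the sequence left free by them the densities were 74.3 and 163 per Mb, so the second class stayed the densest.

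The density differed with what lay on the THP-1 peak. Around THP-1 peaks overlapped by an M2 peak it rose from 16.5 per Mb at gaps up to 100 bp to 173 per Mb at over 300 to 400 bp, and fell to 42.5 per Mb at over 900 to 1000 bp. Around THP-1 peaks with no M2 peak it was 38.2, 55.4 and 14.2 per Mb in the same classes. Within 5000 bp as a whole there were 46.4 flanking peaks per Mb around the former and 18.1 per Mb around the latter. From 10000 to 50000 bp the corresponding densities of M2-only peaks were 19.1 and 12.1 per Mb, so the contrast was wider near the THP-1 peaks than far from them. The smallest gap between a flanking peak and a shared M2 peak was 151 bp. A shared M2 peak thus leaves less room for flanking peaks at the shortest gaps. The densities over free sequence do not correct for this spacing, and its part in the low values at short gaps was not tested.

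**Figure D2:**
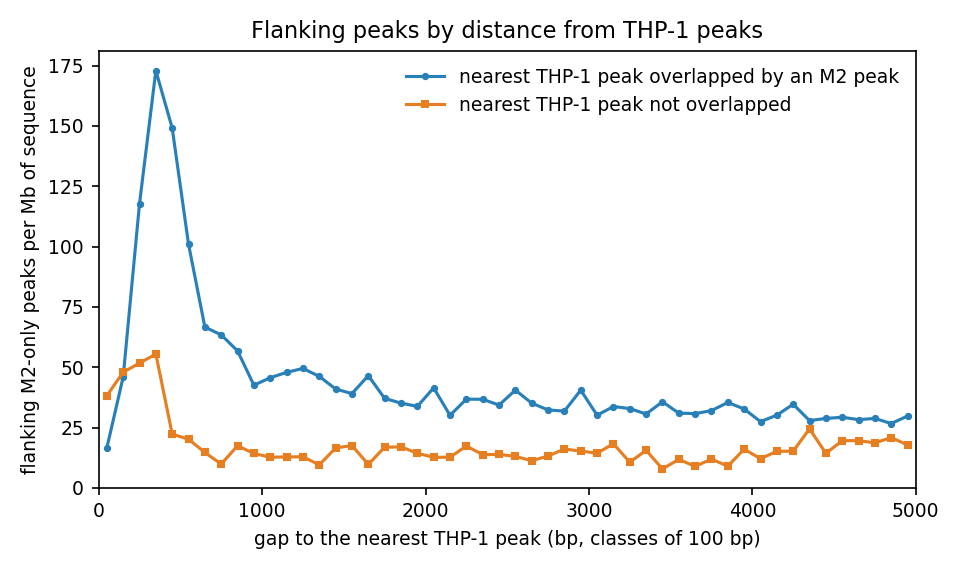
Flanking M2-only peaks per Mb of sequence (vertical axis) against the gap to the nearest THP-1 peak in classes of 100 bp (horizontal axis), for THP-1 peaks that an M2 peak overlaps (blue circles) and for those that none overlaps (orange squares). The blue line has its highest point, 173 per Mb, at gaps of over 300 to 400 bp and the orange line reaches 55.4 per Mb there.

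Most flanking peaks stood beside a THP-1 peak that was acetylated in the macrophages too. A shared M2 peak lay on the nearest THP-1 peak of 7237 flanking peaks, or 87.9% (87.2 to 88.6). For the 26734 M2-only peaks under 3000 bp with a gap of over 5000 bp, called far peaks here, the share was 77.9% (77.4 to 78.4), and for all 27286 other M2-only peaks, wider ones included, it was 78.1% (77.6 to 78.5). The share did not drop at the limit of 5000 bp. The M2-only peaks under 3000 bp at over 5000 to 10000 bp, which are the nearest of the far peaks, had 83.6% (82.4 to 84.7). Of all THP-1 peaks 75.3% were overlapped by an M2 peak. Several flanking peaks can have the same THP-1 peak, so the share was also taken over the 6417 distinct THP-1 peaks beside them, which are 20.4% of the THP-1 list. Of these 5597, or 87.2% (86.4 to 88.0), were overlapped.

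THP-1 peaks with and without a flanking peak differed in this way at every strength. In the lowest quintile of the THP-1 list by -log10 q, the caller's significance after correction, 81.3% (79.1 to 83.3) of THP-1 peaks with a flanking peak were overlapped by an M2 peak and 60.6% (59.2 to 62.0) of those without. In the highest quintile the shares were 96.5% (95.3 to 97.6) and 89.2% (88.3 to 89.99). By gap the share was lowest for flanking peaks within 250 bp, at 74.6% (71.1 to 77.9), highest at over 500 to 1000 bp, at 92.5% (90.9 to 93.9), and 82.0% (79.5 to 84.4) at over 4000 to 5000 bp. The spacing of M2 peaks given above also bears on the class within 250 bp.

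**Figure D3:**
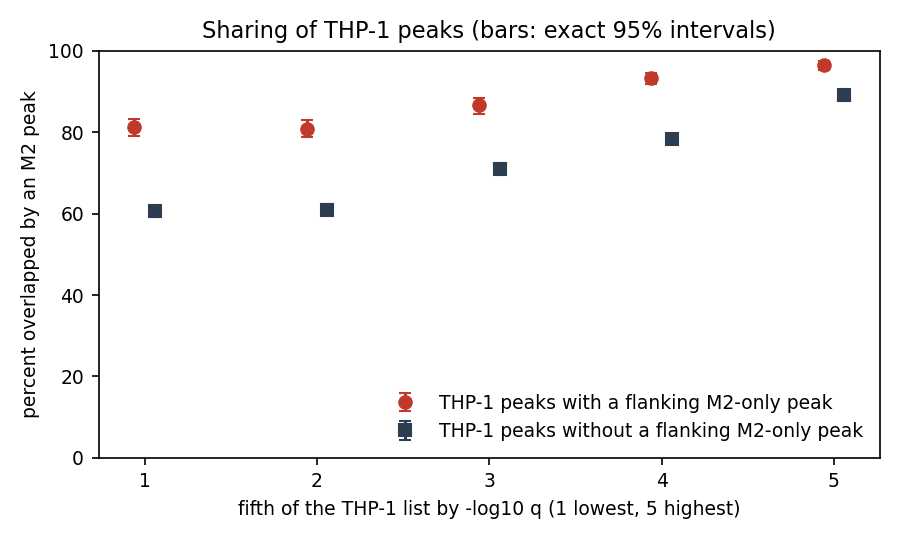
Percent of THP-1 peaks overlapped by an M2 peak (vertical axis) in quintiles of the THP-1 list by -log10 q (horizontal axis), for THP-1 peaks with (red circles) and without (dark squares) a flanking M2-only peak. Bars are exact 95% intervals and cover counting error only. The red points lie above the dark ones in every quintile, with 81.3 against 60.6% in the lowest.

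About as many flanking peaks lay close to a shared M2 peak as did not. In a split made after the data were seen, M2 peaks were chained across gaps of at most 1000 bp, and 4233 flanking peaks, or 51.4% (50.3 to 52.5), fell in a run that held a peak overlapping THP-1. A run was defined by its shared peak, so the nearest THP-1 peak of these was overlapped in 99.3% of cases, and only 28 far peaks fell in such a run. Leaving runs out therefore lowers the share of flanking peaks by construction, and the values that follow describe the remainder and test nothing. The other 4001 flanking peaks had an overlapped THP-1 peak in 75.8% (74.4 to 77.1), against 77.8% (77.3 to 78.3) for far peaks outside such runs. Merging peaks within 1000 bp in both lists absorbs flanking peaks near a shared one, and also joins THP-1 peaks, of which 24200 were left. It left 3257 flanking peaks, with a share of 76.4% (74.9 to 77.8) against 78.9% (78.4 to 79.5) for far peaks. THP-1 peaks with and without a flanking peak were then overlapped in 76.6% (75.04 to 78.1) and 76.5% (75.9 to 77.1), shares whose intervals overlap.

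Between a flanking peak and the shared M2 peak the stretch without a called peak was short. For 6010 of the 7237 flanking peaks, or 83.0%, the next M2 peak toward the THP-1 peak was the one on it, and for the other 1227 a further M2-only peak lay between. In the 6010 the median gap within the M2 list was 439.5 bp (interquartile range 244 to 1942), and 52.3% of these gaps were under 500 bp. The gap of the same peaks to the THP-1 peak had a median of 972 bp. The M2 gap was the smaller of the pair for 78.7% (77.6 to 79.7), meaning that the shared M2 peak reached past that edge of the THP-1 peak. Short gaps were common among all neighbouring peaks. Of gaps up to 5000 bp, 48.2% (47.0 to 49.4) were under 500 bp between a flanking and a shared M2 peak. The value was 53.4% (51.9 to 54.8) between neighbouring shared peaks and 50.4% (49.5 to 51.4) between neighbouring THP-1 peaks. Between neighbouring flanking peaks it was 63.8% (61.3 to 66.2), close to the 64.0% (62.9 to 65.0) between neighbouring far peaks.

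The shared M2 peak was the larger of each such pair in most cases. Its median width was 1299 bp and that of the flanking peak 567 bp, and the flanking peak was the wider in 20.2% (19.2 to 21.3) of the 6010 pairs. The number of fragments over a summit, which the lists do not give, was recovered from fold enrichment and p-value. In the 5624 pairs where this gave a single answer for both peaks, a median of 35 fragments lay over the flanking summit and 77 over the shared summit. The median ratio was 0.528 (interquartile range 0.302 to 0.915), and the flanking summit held more fragments in 21.4% (20.3 to 22.4). Both summits come from 1 library, so no scaling between libraries enters these ratios.

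In pairs of 1 THP-1 and 1 M2 peak with no other overlap, the M2 peak reached farther beyond the THP-1 edge when flanking peaks were present. There were 15927 such pairs, of which 11467 had no flanking peak, 4057 had them on 1 side and 403 on both. The median reach of the M2 peak past the THP-1 edge was 75 bp per side with none, 193 bp with both, and with 1 side 169 bp toward the flanking peak and 107 bp away from it. The reach was longer toward the flanking peak in 2298 of the 4057 pairs, or 56.6% (55.1 to 58.2). The M2 peak was the wider of the pair in 65.2% (64.4 to 66.1) with none, 78.2% (76.9 to 79.4) with 1 side and 86.4% (82.6 to 89.6) with both. THP-1 peaks in these pairs were narrower where flanking peaks were present, with a median of 720 bp with none, 638 bp with 1 side and 604 bp with both. The M2 peaks had medians of 1057, 1116 and 1262 bp.

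Flanking peaks were slightly narrower than far peaks and much narrower than shared M2 peaks of the same width range. The median width was 561 bp (interquartile range 405 to 895) for flanking, 593 bp (416 to 1016) for far and 1088 bp (626 to 1705) for shared M2 peaks under 3000 bp. All other M2-only peaks, with no limit on width, had a median of 604 bp. Widths of over 1000 bp were found in 21.1% (20.2 to 22.0) of flanking, 25.7% (25.1 to 26.2) of far and 54.2% (53.5 to 54.9) of shared peaks. The rule bears on this comparison, since an M2 peak that reached the THP-1 peak would count as shared.

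In deciles of the M2 list by -log10 q the flanking median width was below the far median in 9 of 10. The exception was the second-lowest decile, with 410 bp for flanking and 407 bp for far peaks. The median was 389 bp against 395 bp in the lowest decile and 1560 bp against 1793.5 bp in the highest. Width also rose with the gap, from a median of 515 bp at gaps up to 250 bp to 605 bp at over 4000 to 5000 bp, which is above the far median. The share of M2-only peaks that flanked fell with width, from 24.98% (24.02 to 25.96) of those under 400 bp to 18.1% (16.2 to 20.1) of those of 2000 to 3000 bp.

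**Figure D4:**
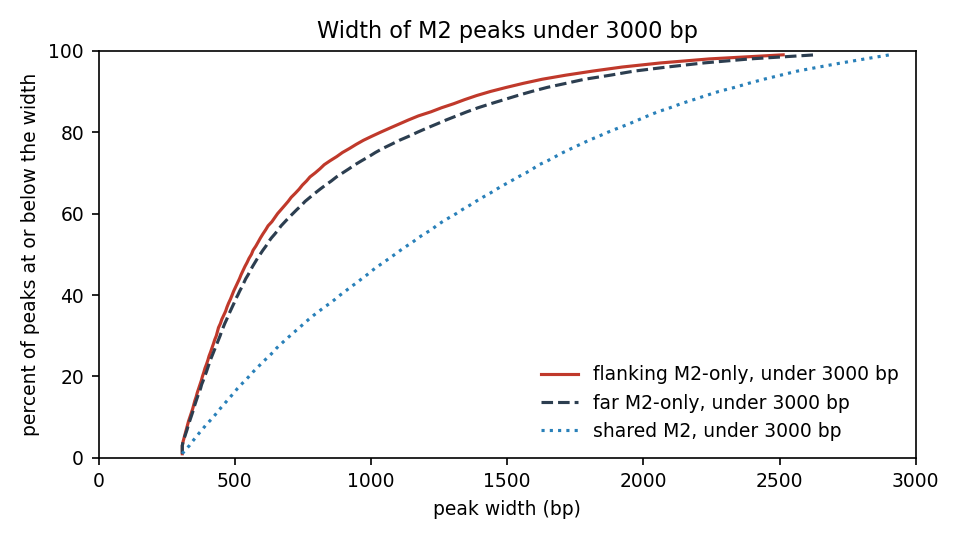
Percent of peaks at or below a width (vertical axis) against width in bp (horizontal axis) for flanking M2-only (red), far M2-only (dashed) and shared M2 peaks (dotted), all under 3000 bp. The flanking and far lines run close together, with medians of 561 and 593 bp, and the shared line lies to their right, with a median of 1088 bp.

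Flanking peaks had a lower fold enrichment than far peaks although more fragments lay over their summits. The median fold was 4.60 (interquartile range 3.61 to 6.07) for flanking and 5.10 (4.05 to 6.86) for far peaks, and 6.09 for shared M2 peaks under 3000 bp. The recovered fragments had a median of 34 (22 to 59) in the 7854 flanking peaks with a single answer, 30 (20 to 53) in far peaks and 57 in shared peaks. The local background, divided by the lowest of the list, was 2.58 (1.51 to 5.07) at flanking summits, 1.90 (1.03 to 3.61) at far and 3.10 (1.58 to 6.19) at shared summits. In each of the 10 deciles of -log10 q the flanking peaks had the lower median fold. More fragments and a higher background went with it in each decile, which is no separate observation, since both were solved from the fold and the p-value. A -log10 q of at least 10 was reached by 48.3% (47.2 to 49.4) of flanking, 50.3% (49.7 to 50.9) of far and 74.8% (74.2 to 75.4) of shared peaks.

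The summits of flanking peaks leaned toward the THP-1 peak. The summit lay on the near side of the midpoint in 4826 of 8234, or 58.6% (57.5 to 59.7), against 50.3% (49.7 to 50.9) in far peaks. The lean was 70.0% (68.0 to 71.9) at gaps up to 500 bp, 59.9% (58.1 to 61.7) at over 500 to 2000 bp and 49.8% (48.0 to 51.5) beyond. It was found beside overlapped THP-1 peaks, with 59.8% (58.7 to 60.9), while beside THP-1 peaks without an M2 peak the value was 49.8% (46.7 to 53.0). Far peaks leaned as much toward their own M2 neighbours. With the nearest M2 peak within 500 bp, the summit was on the side of that neighbour in 72.3% (71.5 to 73.2) of far and 72.7% (71.4 to 73.9) of flanking peaks. At M2 gaps of over 2000 to 5000 bp these values were 50.02% and 49.3%.

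**Figure D5:**
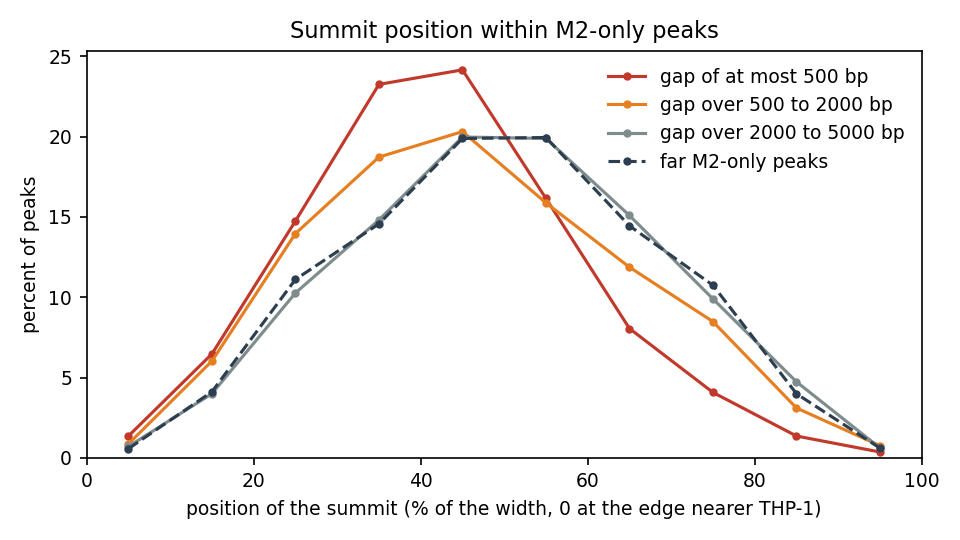
Percent of peaks (vertical axis) by the position of the summit in the peak, in classes of 10% of the width with 0 at the edge nearer the THP-1 peak (horizontal axis). Flanking peaks with gaps of at most 500 bp (red) have more of their summits on the near side, 70.0%, while those with gaps over 2000 bp (grey) follow the far peaks (dashed), with 49.8 and 50.3%.

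Most THP-1 peaks with a flanking peak had only 1. Of the 6417 distinct THP-1 peaks, 4966 (77.4%) had 1, 1157 (18.0%) had 2, 234 had 3 and 60 had 4 or more, with 6 the highest number. Flanking peaks were on both sides of 456 of them, or 7.11%. They lay at lower positions than their THP-1 peak in 50.8% of cases. THP-1 peaks were within 5000 bp on both sides of 910 flanking peaks, or 11.1%. The 2 THP-1 peaks around such a flanking peak were a median of 4685 bp apart. Of the 910, 672 had an M2 peak on both THP-1 neighbours, 220 on 1 and 18 on neither. Their median width was 526 bp, against 564 bp for the other flanking peaks.

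The THP-1 peaks beside flanking peaks were slightly narrower and of lower fold than the rest of their list. The median width was 628 bp (448 to 982) with a flanking peak and 670 bp (462 to 1070) without, and the median fold 3.48 against 3.73. Over the whole list the recovered fragments over the summit had a median of 42 against 40, and the background over the lowest of the list was 5.76 against 4.99. Split by overlap with an M2 peak, the order of the fragments was the reverse. Among overlapped THP-1 peaks the median was 47 with a flanking peak and 52 without, and among the others 21 and 22. The fold was lower with a flanking peak in both parts, at 3.39 against 3.52 and 3.86 against 4.10. The background was 6.92 against 7.30 and 2.69 against 2.37. The share of THP-1 peaks with a flanking peak was 22.4% (21.4 to 23.4) in the lowest quintile of -log10 q and 17.0% (16.1 to 17.9) in the highest.

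A smaller set of 997 flanking peaks, or 12.1%, stood beside a THP-1 peak that no M2 peak overlapped. Here the flanking peak and its nearest THP-1 peak each shared no base with a peak of the other list. Other peaks close by can still be shared, as in region B, where M2 peaks overlap another THP-1 peak. Their median gap was 1731 bp (375 to 3321), against 1351 bp (478 to 2918) beside overlapped THP-1 peaks, and 294 of them had a gap under 500 bp. In 747, or 74.9%, the flanking peak was also the nearest M2 peak to the THP-1 peak. Summits were a median of 2342 bp apart. The peaks were alike in width, 516 bp in the M2 list and 476 bp in the THP-1 list at the median, and the M2 peak was the wider in 54.2%. The 2 flanking peaks of the next highest fold in this set lay on chromosome 2 at 240753810 to 240755110 (20.3-fold) and on chromosome 1 at 249224838 to 249226283 (18.2-fold). Their gaps were 2206 and 2212 bp, and the THP-1 peaks beside them had folds of 5.66 and 3.93. Folds of different lists are each relative to their own background.

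The 5 flanking peaks of highest fold had a higher fold than the shared M2 peak beside them. After the peak on chromosome 2 in region A, the highest folds were on chromosome 3 at 183087239 to 183089795 (28.8-fold, gap 3365 bp), chromosome 14 at 69059646 to 69062406 (28.6-fold, gap 2626 bp), chromosome 3 at 141050805 to 141052713 (27.8-fold, gap 3479 bp) and chromosome 16 at 79201927 to 79204921 (27.04-fold, gap 3275 bp). M2 peaks lay on the THP-1 peak beside each, with highest folds of 5.07, 10.9, 15.7 and 6.10. By other measures the order was not the same throughout. On chromosome 14 the flanking peak had 154 fragments over its summit and the shared peak, 2945 bp wide, had 218. At 141050805 on chromosome 3 the flanking peak had 107 and the shared peak, 3331 bp wide, had 143. For comparison, among the 6010 pairs the flanking peak had the higher fold in 25.2% (24.1 to 26.3). These peaks were chosen for their fold, so their rank over their neighbours is no measure of the other flanking peaks.

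At the 3 sites with the most flanking peaks the folds were below those of the 5 peaks above, which were chosen for their fold. The median fold of all flanking peaks was 4.60. At the THP-1 peak of region C the 6 flanking peaks spanned folds of 2.47 to 9.20, and the M2 peak on it had 4.65. A THP-1 peak on chromosome 12 at 68840751 to 68841788 also had 6, with folds of 4.26 to 6.02, of which 5 lay at lower positions with gaps of 931 to 4618 bp. A further one, on chromosome 11 at 2404405 to 2404952, had 5 flanking peaks with folds of 1.99 to 4.29, all at lower positions. Flanking peaks thus formed rows on 1 side at the last of these sites and lay on both sides at the others.

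Of the 456 THP-1 peaks with flanking peaks on both sides, the 3 with the highest fold on the weaker side are named. Besides region D they were on chromosome 1 at 59603842 to 59605331, where flanking peaks of 12.1-fold on 1 side and of 5.21- and 15.2-fold on the other stood around an M2 peak of 3510 bp (10.8-fold), and on chromosome 1 at 184333421 to 184333803. At the latter no M2 peak lay on the THP-1 peak, and 4 flanking peaks stood around it, the strongest at 11.2-fold on 1 side and 17.5-fold on the other.

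The narrowest gaps were of 1 bp, on chromosome 7 at 101557032 to 101557355, chromosome 19 at 572638 to 573450 and chromosome 18 at 20409547 to 20409853. At the first and second of these no M2 peak lay on the THP-1 peak. The widest flanking peaks were on chromosome 14 at 55564199 to 55567197 (2999 bp, 15.5-fold), chromosome 16 at 79201927 to 79204921 (2995 bp, 27.04-fold) and chromosome 19 at 45240088 to 45243081 (2994 bp, 16.8-fold). The limits of the rule cut through a continuous range. Gaps of 4500 to 5000 bp held 475 flanking peaks with a median width of 615 bp and a median fold of 5.08, and the 500 bp beyond the limit held 467 M2-only peaks with 586 bp and 4.77. The nearest THP-1 peak was overlapped by an M2 peak in 80.4% of the former and 83.9% of the latter, so the share was not higher inside the limit than just outside it. Widths of 2500 to 3000 bp held 85 flanking peaks with a median fold of 9.96, and the 500 bp above that limit held 44 M2-only peaks with 10.3.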

How the data were processed

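H3K27ac peak lists of THP-1 and M2 cells, 1 library each, were compared by position. Per the submitters' processing notes, Bowtie2, MACS2 version 2.1.0 and the hg19 build were used. Their settings, and any use of input as control, were not given in the sources used here. Lists were read in narrowPeak order, starts converted to 1-based. Fold enrichment is a ratio deposited by the authors for each peak, as are the -log10 p and -log10 q. The score deposited by the authors was not used. Chromosome Y was left out. Peak numbers in the lists do not start at 1, so the lists may be only part of what was called.

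Overlap of 1 bp counts as shared. Gaps are the bases between peaks, and they equalled those of bedtools 2.31.1 for 56420 of 56420 M2 peaks. Sequence at each distance was summed over the spaces between THP-1 peaks, each base going to its nearest THP-1 peak. Shares carry exact (Clopper-Pearson) 95% intervals.

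Fragments k and background were solved by the relations MACS2 is known to use, from fold = (pileup + 1)/(background + 1) and a Poisson p-value, with pileup equal to k times 0.842 in M2 and unscaled in THP-1. A whole number within 0.02 was found for 99.99% of M2 peaks, against 11.8% at a typical other scale among the 3000 weakest, and for 100% of THP-1 peaks. A single answer was found for 96.6% and 98.6%. They are inferred values and not counts given by the authors. On simulated peaks all single answers were right (2672 of 2672 and 2805 of 2805), and overlaps and gaps were right for 300 of 300.

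Regions are named by fixed rules: the 5 flanking peaks of highest fold, the 3 of highest fold beside a THP-1 peak without M2 overlap, the 3 THP-1 peaks with most flanking peaks, the 3 with the strongest on both sides, the 3 smallest gaps and the 3 widest. Members and measures were chosen with earlier results of these data known. Other settings tried were the gap and width limits, the overlap, stricter and equal lists, merging and summit distance. The tables of gene positions were in another build and were not used, so no peak was assigned to a gene.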

Additional observations from a re-analysis of the deposited data

How the results depend on the processing

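The 9 other settings used the same lists and kept a rule on overlap, which bears on width as given above. Their results are thus not independent of one another. Flanking peaks were narrower and of lower fold than far peaks in 9 of 9 of these settings, and beside overlapped THP-1 peaks more often in 8 of 9. The exception was merging peaks within 1000 bp, which left 3257 flanking peaks, or 13.5% of 24127 M2-only peaks, against 23.2% with the main settings. Their median gap was 2775 bp, and 76.4% were beside an overlapped THP-1 peak (far peaks 78.9%). Their medians were 826 bp and 4.93-fold. Without the peaks in runs with a shared peak, chosen after the data were seen, the share was 75.8% (far peaks 77.8%). Leaving out runs removes flanking peaks that lie near a shared peak, which lowers the share by construction. Merging absorbs such peaks too, but it also joins THP-1 peaks, and the cause of its shift was not tested. With gaps up to 2000 bp there were 4981 peaks, or 14.0% of M2-only peaks, with a median gap of 570 bp. Their share beside overlapped THP-1 peaks was 89.0%, with a width of 540 bp and a fold of 4.43. Gaps up to 10000 bp took in 34.3% of M2-only peaks, with a median gap of 2906 bp, a share of 86.5%, 574 bp and 4.67. At a -log10 q of at least 10 in both lists there were 2969 peaks, 11.7% of 25284 M2-only peaks, with a median gap of 1750 bp. The share beside overlapped THP-1 peaks was 85.3% (far peaks 74.4%), with 940 bp and 6.14. That threshold in the M2 list only gave 3978 peaks, 22.1% of 17988 M2-only peaks, with 78.1% (far peaks 64.9%), 795.5 bp and 6.08. Lists of equal length gave 3517 peaks, 21.9% of 16043 M2-only peaks, with 76.6% (far peaks 62.9%), 831 bp and 6.28. Summit distances gave a median of 1937.5 bp, with 546 bp and 4.53. Overlap from 10% of the M2 peak gave 86.9%. The cause of the other shifts was not tested. No paired analysis was possible because each cell type has 1 library. The lists hold no signal below the calling threshold, so THP-1 acetylation under a flanking peak that was too weak to be called cannot be seen.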

Other observations

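The share of M2-only peaks that flank differed between chromosomes. It was highest on chromosome 19, with 380 of 1203 or 31.6% (29.0 to 34.3), and chromosome 17 followed at 28.0% (25.7 to 30.4). It was lowest on chromosome 4, with 288 of 1678 or 17.2% (15.4 to 19.1), and on chromosome X, at 18.5% (16.2 to 21.0). How densely THP-1 peaks lie along a chromosome bears on this share and was not set beside it, so the values are no trait of the flanking peaks. The flanking peaks of chromosome 19 were beside an overlapped THP-1 peak in 95% of cases and those of chromosome 1 in 84.0%. The share of all THP-1 peaks that were overlapped was not taken for each chromosome.

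With the lists exchanged, THP-1-only peaks under 3000 bp within 5000 bp of an M2 peak numbered 2974, or 38.3% (37.2 to 39.4) of the 7761 THP-1-only peaks. Their median gap was 1148.5 bp and their median width 523.5 bp, against 543 bp for the other THP-1-only peaks. The nearest M2 peak was a shared one in 68.9% (67.2 to 70.6), while 37.0% of all M2 peaks are shared. This share was not taken for the other THP-1-only peaks, so the contrast is unlike that of flanking and far peaks above. Because the M2 list is the longer, the shares of the 2 directions are not on the same footing.

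A further 98 M2-only peaks within 5000 bp of a THP-1 peak were 3000 bp or wider. Their median fold was 10.2, and 96 of them had an M2 peak on the nearest THP-1 peak.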
